A study of Mus musculus with 9 samples.

Results

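Reg1, Reg3a, Reg3b, Reg3g and Reg4, which encode secreted C-type lectins, and Lypd8, which encodes a lipid-anchored glycoprotein, were followed in the mouse jejunum. The genes were chosen by symbol, and all 6 were found among the 21868 genes of the deposited count table and passed the filter on low counts that left 14668 genes for testing. The libraries were made from poly(A)-selected RNA of a 5 cm piece of jejunum, opened lengthwise, from mice treated for 24 h. The 3 groups of 3 biological replicates each were a sham treatment, TPN (total parenteral nutrition, which supplies nutrients through a vein and bypasses the gut) and starvation. The labels give no genotype, strain, sex or age for any group, and do not say what the sham mice ate. Each library came from whole tissue, so fewer cells of a type and less RNA per cell cannot be told apart.

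Reg proteins are small lectins that epithelial cells release into the gut lumen. Reg3g and Reg3b are known to bind sugars on bacterial surfaces and to kill bacteria near the epithelium, with Reg3g acting mainly on Gram-positive and Reg3b mainly on Gram-negative species. Transcription of both is known to depend on microbial sensing through MyD88 and on interleukin 22 acting through STAT3. Reg1 and Reg3b are also made by the acinar cells of the pancreas, the first as pancreatic stone protein and the second as pancreatitis-associated protein. Reg4 marks enteroendocrine and other secretory cells. Lypd8 is known from the colon, where it binds the flagella of bacteria and keeps them away from the epithelium.

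In the GRCm38 annotation, 4 of the 6 genes lie in a cluster of 6 Reg genes on chromosome 6 that spans 98.2 kb. Reg3b is at chr6:78370657-78373466 and Reg3a at chr6:78380709-78383827, both on the plus strand. Reg1 is at chr6:78422711-78428667 on the plus strand, and Reg3g at chr6:78466269-78468872 on the minus strand. Reg2 and Reg3d fill the rest of the cluster. Reg4 is at chr3:98222156-98236748 and Lypd8 at chr11:58379043-58390728, both on the plus strand. No annotated gene overlaps any of the 6. The Reg3 transcripts resemble each other: the longest protein-coding transcripts of Reg3b and Reg3g were identical at 67.5% of alignment columns, and the longest run of bases shared by any of their transcripts was 35. How reads that fit several genes were counted is not stated in the sources used.

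The 250 bases before the RefSeq start sites of Reg3b (chr6:78370635-78370884, plus strand) and Reg3g (chr6:78468875-78469124, minus strand) are shown because the levels of this pair of genes differed in direction between the groups. Both are RefSeq promoters of build GRCm38.p6, printed 5′ to 3′ along the gene. Capitals mark matches to TTCNNNGAA, the pattern bound by STAT factors and searched on both strands, and to TATAAA, searched on the gene's own strand.
Reg3b: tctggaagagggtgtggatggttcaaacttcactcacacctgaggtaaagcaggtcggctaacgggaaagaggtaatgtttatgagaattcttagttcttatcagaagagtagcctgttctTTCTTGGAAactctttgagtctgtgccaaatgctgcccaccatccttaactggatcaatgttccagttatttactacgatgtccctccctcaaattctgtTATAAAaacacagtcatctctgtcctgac
Reg3g: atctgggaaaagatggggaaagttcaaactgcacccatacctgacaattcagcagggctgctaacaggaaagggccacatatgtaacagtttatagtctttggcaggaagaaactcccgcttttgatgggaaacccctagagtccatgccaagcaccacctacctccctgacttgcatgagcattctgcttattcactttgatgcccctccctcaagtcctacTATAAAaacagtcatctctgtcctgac
Over windows that also take in the 50 bases after the start, the Reg3b and Reg3g promoters were identical at 68.1% of alignment columns, with a longest shared run of 29 bases. TATAAA lay 29 bases before the start of Reg3b and 27 before that of Reg3g, and 8.32% of the 32851 RefSeq promoter windows of 300 bases hold it. TTCNNNGAA occurred in Reg3b, as TTCTTGGAA beginning 129 bases before the start, and in 8.3% of all windows. It was not found in the window of Reg3g.

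Library totals ran from 7779877 to 12084278 counts, so that 1 read is worth 0.0798 to 0.119 CPM, and the 6 genes had between 178 and 17014 reads in a library. CPM is the usual depth-scaled read count, here with library totals adjusted by trimmed mean of M-values (TMM) factors. Some libraries stood apart in ways that touch the results. The 19 measured pancreatic acinar markers, genes for digestive enzymes of the exocrine pancreas, summed to 60.7 to 5972 CPM in sham, 60.7 to 29449 CPM in TPN and 50.2 to 4170 CPM in starvation. They were highest in TPN replicate 2, then in sham replicate 1, starvation replicate 1 and TPN replicate 1, at 582 CPM, the libraries in which every marker was detected. In the other 5 libraries 7 to 11 of the 19 were at 0, and Cela3b, Cpa1 and Pla2g1b were at 0 in each of those 5. The 15 smooth muscle markers summed to 14225 CPM in sham replicate 2 against 915 to 2187 CPM elsewhere. In starvation replicate 3 the 9 villus tip markers summed highest, at 118795 CPM, and the 10 stem cell markers lowest, at 275 CPM. All 12 enterocyte markers were detected in every library. Of 8 distal intestinal markers, the ileal gene Fabp6 was at 0 in 8 of the 9 libraries. Fabp6 and Car1 were the only distal markers at 0 in any library. The 8 summed to 157 to 192 CPM in sham, 144 to 172 CPM in TPN and 138 to 298 CPM in starvation, highest in starvation replicate 3.

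Reg3b was higher and Reg3g lower in TPN and in starvation than in sham, most plainly as their ratio, although neither gene passed edgeR's test by itself with all 9 libraries. DESeq2 called Reg3b in TPN (adjusted p = 0.0270) and Reg3g in starvation (0.00318) against sham, and limma voom called neither. Over all genes DESeq2 called 2421 in TPN against sham, 1654 in starvation against sham and 1791 in TPN against starvation. The edgeR test called fewer, 1261, 541 and 857. Lypd8 was lower in starvation than in TPN, the single difference that passed in edgeR; DESeq2 also called it lower in starvation than in sham (adjusted p = 0.00486) and Reg3a higher in TPN than in starvation (0.00424). Reg1 varied widely within groups, its highest library at 2.46 to 4.94 times its lowest.

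Reg3g was measured at 327, 261 and 233 CPM in the sham libraries, replicates 1 to 3. It was at 81.8, 244 and 59.0 CPM in TPN and at 73.7, 107 and 56.3 CPM in starvation. All 3 starvation libraries and TPN replicates 1 and 3 lay far below every sham library, and TPN replicate 2 lay inside the sham range. The mean was 273 ± 48.4 CPM (SD, n = 3) in sham, 128 ± 101 CPM in TPN and 79.1 ± 25.9 CPM in starvation. Starvation differed from sham by -1.79 ± 0.48 (log2 fold change ± SE), or 3.45-fold lower, with an adjusted p of 0.0743 in edgeR's quasi-likelihood test. TPN differed from sham by -1.09 ± 0.48, with an adjusted p of 0.176. Without TPN replicate 2, the library with the most acinar RNA, the TPN difference was -1.96 ± 0.32 and passed the test, with an adjusted p of 0.0276. In that fit the starvation difference passed at 0.0326. The TPN difference passed in this 1 alternative of 23, and the starvation difference in 2 of 23. With the acinar level in the fit and TPN replicate 2 kept, the TPN difference did not pass (adjusted p = 0.0877). Over all alternatives the adjusted p ran from 0.0276 to 0.676 for TPN and from 0.00318 to 0.386 for starvation.

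Reg3b ran the other way. It was at 632, 545 and 417 CPM in sham, at 792, 2028 and 781 CPM in TPN and at 581, 1084 and 1029 CPM in starvation. Every TPN library was above every sham library, and starvation replicate 1 lay inside the sham range. The TPN mean of 1200.4 ± 717 CPM (SD, n = 3) was 2.26-fold the sham mean of 532 ± 108 CPM in the fit, a log2 fold change of 1.18 ± 0.40 with an adjusted p of 0.101. Starvation, at 898 ± 276 CPM, differed from sham by 0.76 ± 0.40 with an adjusted p of 0.285. Much of the TPN mean came from replicate 2: without it the TPN difference was 0.56 and its adjusted p 0.352.

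The number of Reg3b reads per Reg3g read separated sham from TPN and from starvation more sharply than either gene did. This ratio does not depend on library size or scaling, and it was chosen after the values of both genes had been seen. In sham it was 1.93, 2.09 and 1.79. In TPN it was 9.68, 8.33 and 13.2, and in starvation 7.88, 10.1 and 18.3. All 6 libraries of TPN and starvation were above all 3 sham libraries, and TPN replicate 2 did not stand apart from the rest of its group. The mean log2 ratio was 0.95 ± 0.11 (SD, n = 3) in sham, 3.35 ± 0.34 in TPN and 3.50 ± 0.62 in starvation. TPN differed from sham by 2.40 and starvation from sham by 2.55 on the log2 scale, which is 5.28-fold and 5.85-fold. Both comparisons share the sham libraries. The exact two-sided permutation p was 0.1 for each (0.15 after Benjamini-Hochberg adjustment over the 3 comparisons), the smallest that 3 against 3 libraries can give. TPN and starvation differed by -0.15, less than the spread between replicates (exact permutation p = 0.8).

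**Figure D1:**
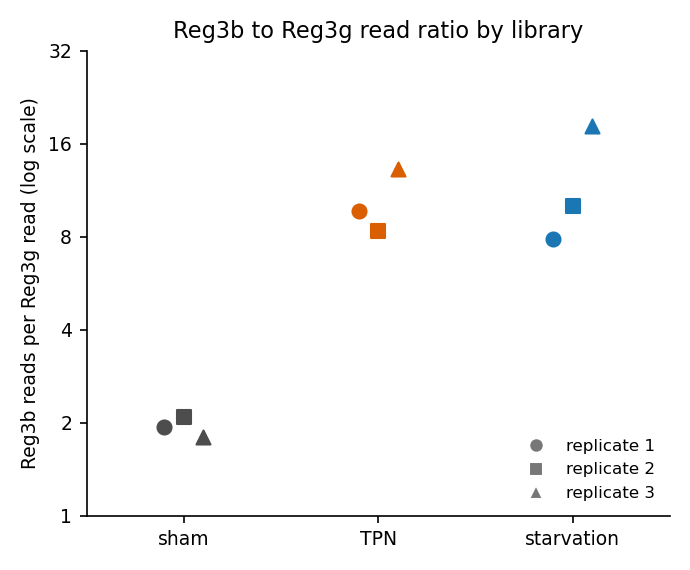
Reg3b reads per Reg3g read (vertical log axis) in each of the 9 libraries, by group, with a marker shape for each replicate number. The 3 sham libraries lie between 1.79 and 2.09 and the 6 others between 7.88 and 18.3.

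Lypd8 was measured at 915, 516 and 905 CPM in sham, at 983, 832 and 965 CPM in TPN and at 417, 482 and 298 CPM in starvation. The starvation libraries lay below all 6 others, and the TPN libraries were close together. TPN was 2.32-fold higher than starvation, at 927 ± 82.1 against 399 ± 93.1 CPM (SD, n = 3). The log2 fold change was 1.22 ± 0.27 with an adjusted p of 0.0312, so Lypd8 was the 1 member of 6 that passed in this comparison. Of all genes tested, 5.84% passed in it, 1.94% being higher in TPN and 3.90% lower. The call passed in 13 of 23 alternatives, with adjusted p from 1.26e-04 to 0.875 and log2 fold changes from 1.08 to 1.37. It was lost without sham replicate 3 (0.0526), starvation replicate 2 (0.0558) or any TPN library (0.0936 to 0.124), with library totals only (0.0536) and with the acinar level in the fit (0.0616).

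Against sham, Lypd8 in starvation differed by -0.96 ± 0.27 (adjusted p = 0.0772), or 1.95-fold lower than the sham mean of 779 ± 228 CPM. The lowest sham library was replicate 2, the one with the high smooth muscle markers. Without that library the difference was -1.19 and passed, with an adjusted p of 0.0420, one of 4 alternatives of 23 in which it did (adjusted p from 0.00128 to 0.583). TPN and sham differed by 0.25 ± 0.26 (adjusted p = 0.574). Paneth cell markers, mostly defensins and lysozyme of the crypt base, were also lower in starvation: the 15 markers summed to 526 to 1926 CPM there against 3278 to 3633 CPM in sham and 3359 to 4499 CPM in TPN. The largest part of these sums was Lyz1, with means of 2577 CPM in sham, 2881 CPM in TPN and 1167 CPM in starvation. Lyz1 itself did not pass in starvation against sham (adjusted p = 0.157) or in TPN against starvation (0.114). Of the 15, 6 fell in starvation against sham, where 1.14% of all genes did. In TPN against starvation 9 were higher in TPN, where 1.94% of all genes were. Their part in the Lypd8 result was not tested.

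Reg4 was at 42.1, 40.8 and 43.8 CPM in sham, at 55.9, 46.4 and 48.1 CPM in TPN and at 28.5, 43.7 and 20.6 CPM in starvation. Each TPN library was above each sham and starvation library, and the starvation libraries were the most spread. TPN differed from sham by 0.25 ± 0.24 (log2 fold change ± SE, adjusted p = 0.532) and from starvation by 0.70 ± 0.24 (adjusted p = 0.120). Without starvation replicate 2, TPN and starvation differed by 1.03 with an adjusted p of 0.0323, the one alternative of 23 that passed (adjusted p up to 0.906). Starvation and sham differed by -0.45 ± 0.24 (adjusted p = 0.282). The 17 enteroendocrine markers in the table summed to 254 to 273 CPM in starvation, 334 to 378 CPM in TPN and 367 to 398 CPM in sham, and their part in the Reg4 values was not tested.

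Reg1 was at 1274, 258 and 527 CPM in sham, at 699, 1736 and 363 CPM in TPN and at 631, 256 and 377 CPM in starvation. Within each group the highest library was the one with the most acinar RNA: sham replicate 1, TPN replicate 2 and starvation replicate 1. The groups overlapped in every comparison. The log2 fold changes were 0.44 ± 0.66 for TPN against sham (adjusted p = 0.703), -0.70 ± 0.67 for starvation against sham (adjusted p = 0.552) and 1.15 ± 0.67 for TPN against starvation (adjusted p = 0.348). Without TPN replicate 2 the difference from sham changed sign, to -0.37, and without sham replicate 1 that of starvation did, to 0.10.

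Reg3a was at 73.8, 93.7 and 105 CPM in sham, at 87.5, 424 and 85.1 CPM in TPN and at 39.97, 61.3 and 50.3 CPM in starvation. TPN replicate 2 was several times above every other library, and the starvation libraries lay below all 6 of the others. TPN and starvation differed by 1.97 ± 0.57 (log2 fold change ± SE) with an adjusted p of 0.0746, and by 0.77 without TPN replicate 2. Starvation and sham differed by -0.85 ± 0.55 (adjusted p = 0.378), and TPN and sham by 1.13 ± 0.55 (adjusted p = 0.225). Without TPN replicate 2 that last difference was -0.076.

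**Figure D2:**
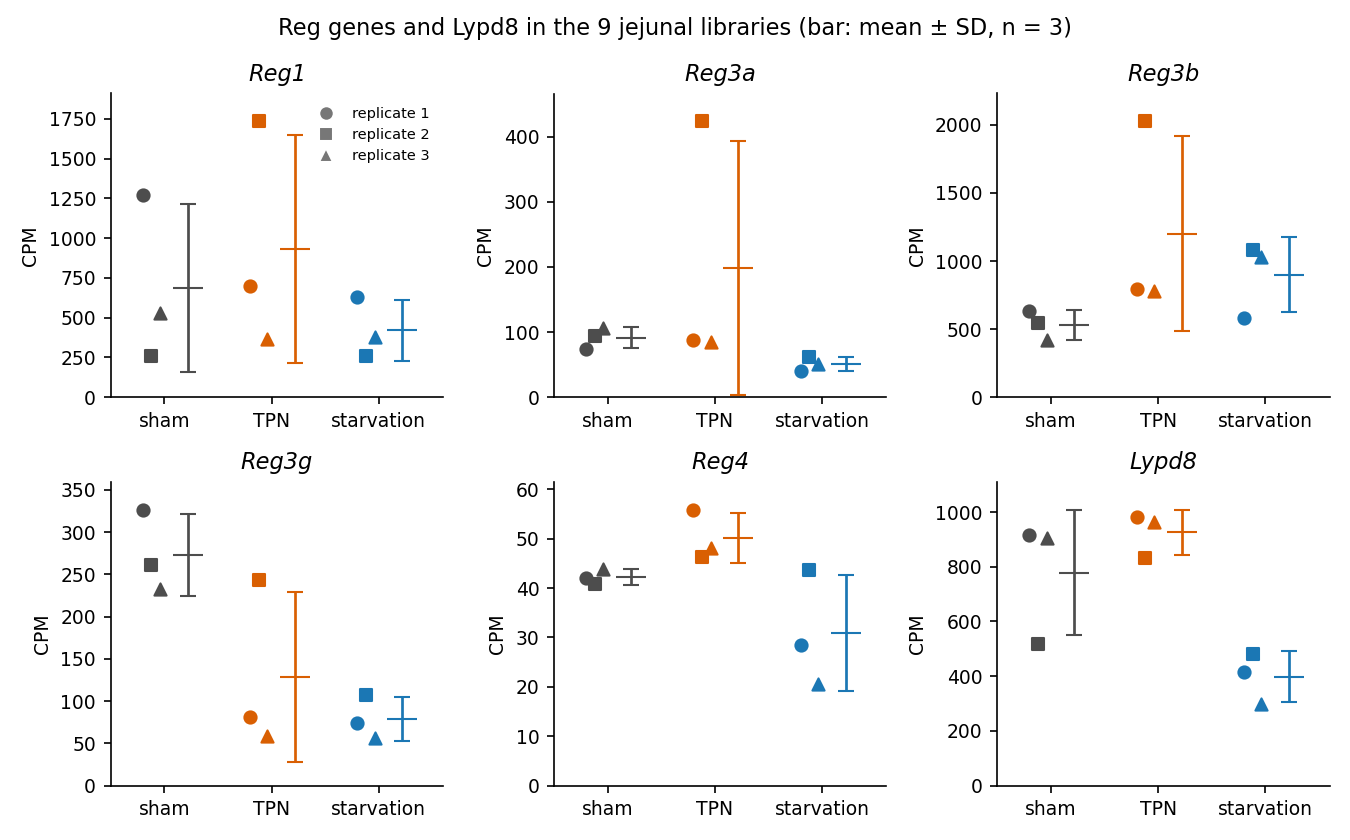
CPM of each of the 6 genes (vertical axes, each with its own scale from 0) in sham, TPN and starvation; points are libraries with a marker shape for each replicate number, and bars give the mean ± SD of 3 libraries. Reg3g is lower in all starvation libraries than in any sham library, and TPN replicate 2 is the highest library for Reg1, Reg3a and Reg3b.

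Of the remaining 2 genes of the cluster, Reg2 had 98, 0 and 1 reads in sham, 206, 5725 and 0 in TPN and 61, 0 and 0 in starvation. It was thus found almost wholly in the 4 libraries in which every acinar marker was detected. Reg3d had 31, 2 and 3 reads in sham, 79, 1847 and 19 in TPN and 59, 23 and 15 in starvation, again highest in TPN replicate 2. With the acinar level as a covariate and TPN replicate 2 kept, the TPN against sham log2 fold change was -0.12 for Reg1, 0.71 for Reg3a, 1.00 for Reg3b and -1.52 for Reg3g, against 0.44, 1.13, 1.18 and -1.09 without the covariate. None of the 4 passed in that fit (adjusted p from 0.0877 to 0.862). Lypd8l, a gene like Lypd8, was not analysed here.

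**Figure D3:**
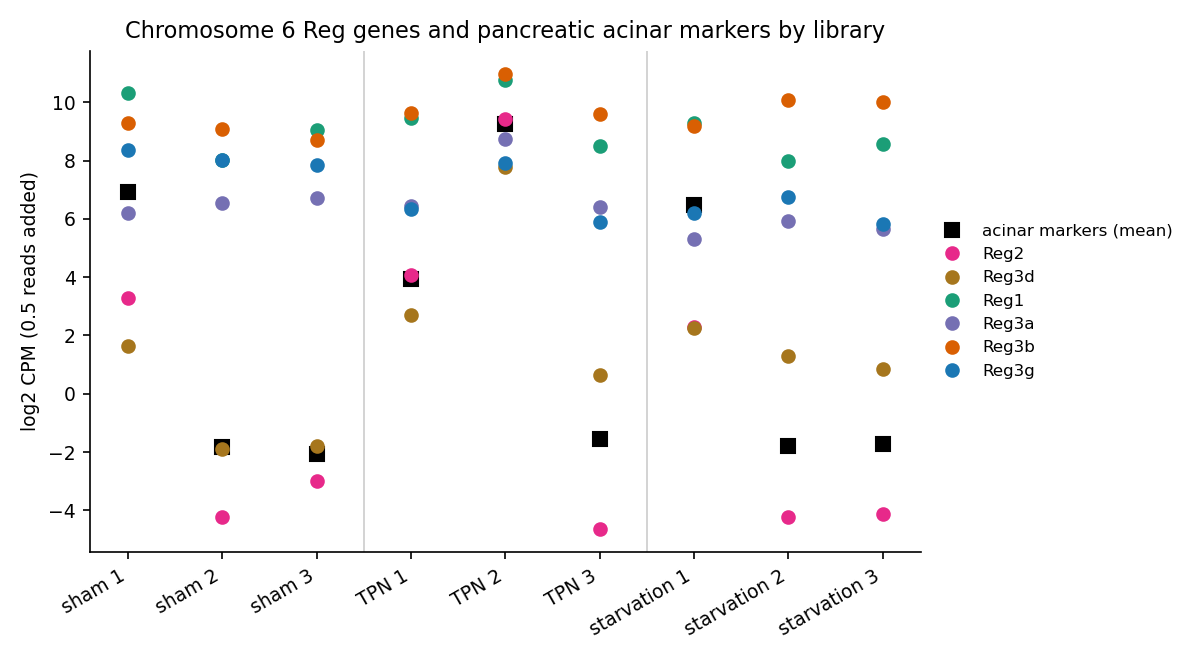
Log2 CPM (0.5 reads added) of the 6 Reg genes of chromosome 6 as circles, and the mean log2 CPM of 19 pancreatic acinar markers as squares, in each of the 9 libraries. The acinar mean is 9.25 in TPN replicate 2, where Reg1, Reg2, Reg3a, Reg3b and Reg3d are all at their highest.

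In TPN against sham, 0 of the 6 genes passed edgeR's test, where 8.60% of all genes did (3.48% higher in TPN and 5.12% lower). Unadjusted p was under 0.05 for 2 of them, Reg3b and Reg3g, and for 3939 of all 14668 genes. DESeq2 called 1 of the 6 and 2421 of all genes, and limma voom 0 and 1247. In starvation against sham 0 of 6 passed, where 3.69% of all genes did (2.55% higher in starvation and 1.14% lower). Unadjusted p was under 0.05 for Reg3g and Lypd8, and for 3430 of all genes. There DESeq2 called 2 of the 6 and 1654 of all genes, and limma voom 0 and 444. In TPN against starvation unadjusted p was under 0.05 for 3385 of all genes. These totals also stand beside the list counts given below. The groups did not overlap for 2 of the 6 in TPN against sham, where this held for 42.7% of all genes. They did not overlap for 3 in starvation against sham (25.1% of all genes) and for 3 in TPN against starvation (33.6% of all genes). The median log2 fold change of the 6 was 0.35 in TPN against sham, -0.78 in starvation against sham and 0.92 in TPN against starvation, beside -0.02, -0.01 and -0.03 over all genes.

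**Figure D4:**
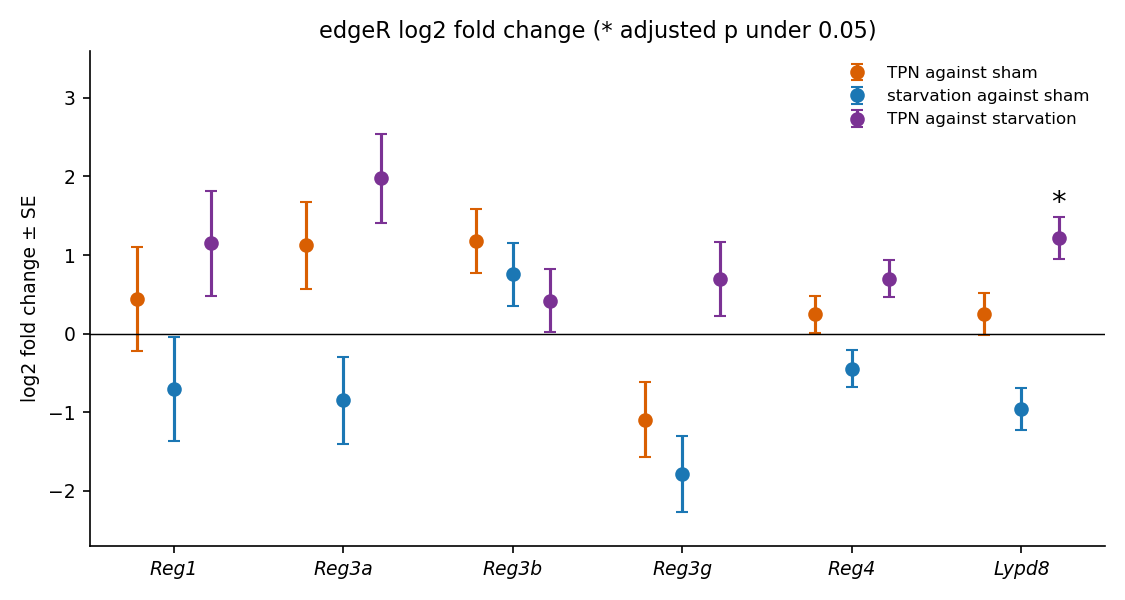
edgeR log2 fold change ± SE of the 6 genes in the 3 comparisons of 3 against 3 libraries; an asterisk marks an adjusted p under 0.05. Reg3b is above 0 and Reg3g below 0 in both comparisons with sham, and only Lypd8 in TPN against starvation carries the asterisk.

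**Figure D5:**
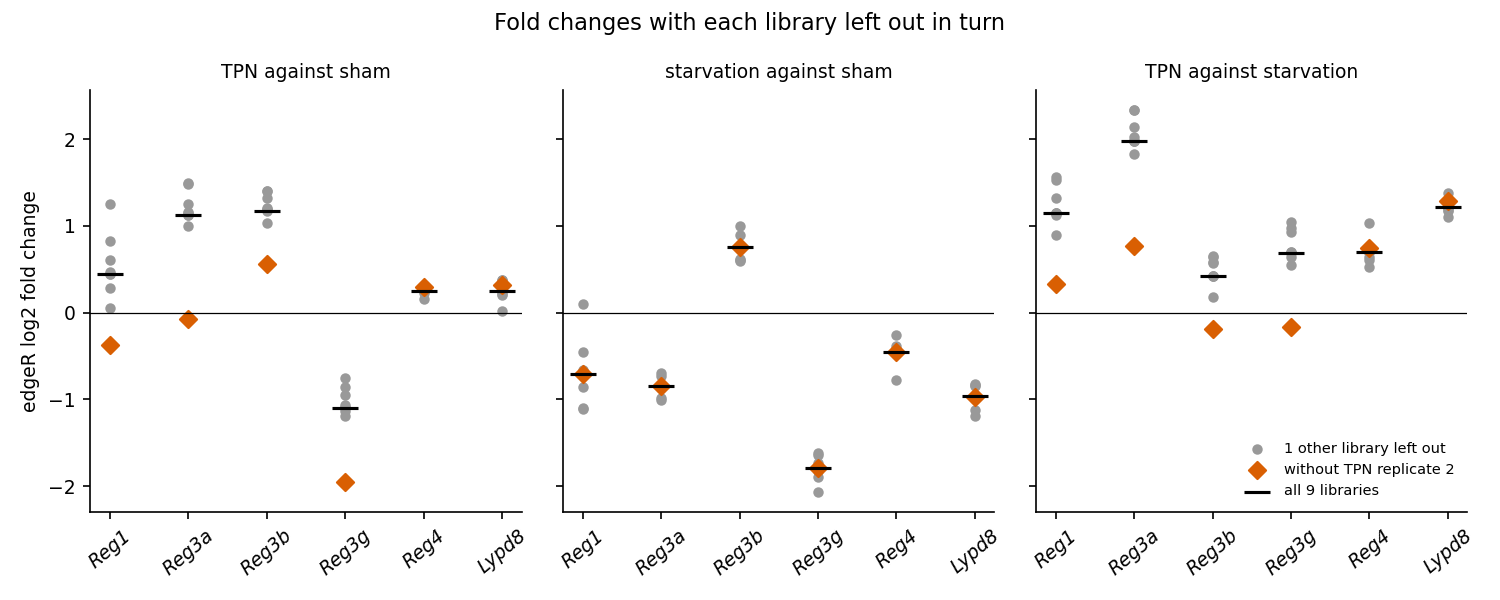
edgeR log2 fold change of the 6 genes in each comparison with all 9 libraries (black bars), without TPN replicate 2 (orange diamonds) and without each other library in turn (grey points). Leaving out TPN replicate 2 takes Reg1 and Reg3a in TPN against sham from above 0 to -0.37 and -0.076, and Reg3g from -1.09 to -1.96.

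Scaled by the length of the longest protein-coding transcript, so that genes can be compared, Reg1 had the highest level in sham (759 CPM per kb), followed by Reg3b (679), Lypd8 (639), Reg3g (355), Reg3a (110.3) and Reg4 (41.4). The first 3 of these did not differ beyond their spread over libraries, which was 582, 138 and 187 CPM per kb (SD). In TPN the order was Reg3b (1533), Reg1 (1032), Lypd8 (760.2), Reg3a (241), Reg3g (166) and Reg4 (49.1). In starvation Reg3b was highest (1147), then Reg1 (466), Lypd8 (327), Reg3g (103), Reg3a (61.3) and Reg4 (30.3). Reg3b was higher than Reg3g in every library, and the distance between them was the least in sham. Together the 6 genes took 0.140% to 0.573% of a library's counts, with the highest share in TPN replicate 2.

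The signals known to control Reg genes were looked at in lists. Interleukin 22 is the main inducer of Reg3 genes in the gut, but Il22 had 0 reads in all 9 libraries, which allows a level of up to 0.239 to 0.358 CPM depending on the library (3 reads, counting error only). Il17a had at most 1 read in a library. Of 24 receptors and signalling genes upstream of Reg genes, 1 rose and 0 fell in TPN against sham (median log2 fold change 0.16, beside -0.02 over all genes), 0 rose and 1 fell in starvation against sham (median 0.07), and 1 was higher in TPN than in starvation (median 0.01). The gene higher in TPN was Osmr, the oncostatin M receptor subunit, at 48.8 ± 6.46 CPM (SD, n = 3) in TPN, 9.91 ± 0.381 CPM in sham and 10.3 ± 6.83 CPM in starvation. Its log2 fold change was 2.30 ± 0.47 against sham (adjusted p = 0.0206) and 2.23 ± 0.47 against starvation (adjusted p = 0.0272). The gene that fell in starvation was Bcl3, an atypical inhibitor of NF-kappaB, by -0.84 ± 0.17 (adjusted p = 0.0321). With 1 library left out at a time, Osmr passed against sham in 4 of 9 fits, and was lost without sham replicate 1 or 3 or any TPN library (adjusted p up to 0.0841). Against starvation it passed in 5 of 9, and was lost without any TPN library or starvation replicate 2 (up to 0.109). With the smooth muscle covariate Osmr did not pass against sham (0.102). Bcl3 passed in 2 of 9, those without sham replicate 1 or starvation replicate 3 (up to 0.111 in the others).

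Stat3, the transcription factor through which interleukin 22 acts, was at 161, 158 and 153 CPM in sham, at 136, 146 and 138 CPM in TPN and at 129, 144 and 232 CPM in starvation. Every TPN library was below every sham library, and the starvation libraries lay on both sides. The log2 fold changes were -0.17 ± 0.21 for TPN (adjusted p = 0.630) and 0.09 ± 0.21 for starvation (adjusted p = 0.821). Il22ra1, the receptor subunit on epithelial cells, differed by 0.49 ± 0.28 (adjusted p = 0.290) and 0.31 ± 0.28 (adjusted p = 0.532). The TPN difference of Il22ra1 passed in 2 of 23 alternatives. It was 0.52 without starvation replicate 3 (adjusted p = 0.0396) and 0.54 without sham replicate 2 and starvation replicate 3 together (0.0298). Those fits called 3182 and 4425 of all genes. Its starvation difference passed in 0 of 23.

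Of the 12 cytokines upstream of Reg genes, 5 were expressed enough to be tested. In TPN against sham 1 rose and 1 fell. Il1b, an inflammatory cytokine, was at 12.3 ± 2.10 CPM (SD, n = 3) in TPN and 2.58 ± 0.774 CPM in sham, a log2 fold change of 2.25 ± 0.36 (adjusted p = 0.00842). It was also higher in TPN than in starvation, by 3.05 ± 0.38 (adjusted p = 0.00373). Il33, an alarmin of epithelial and stromal cells, fell in TPN to 25.9 ± 2.14 from 62.7 ± 14.9 CPM (-1.27 ± 0.31, adjusted p = 0.0383). In starvation against sham 0 of the 5 passed in edgeR, with 2 at unadjusted p under 0.05 and 0 called by DESeq2. Left out singly, TPN replicate 1 ended the Il1b call against sham (adjusted p = 0.0547), and no library ended that against starvation. Il33 passed in 2 of 9 such fits, those without starvation replicate 1 or 3 (adjusted p up to 0.145 in the others). Il18, which epithelial cells release, differed by 0.48 ± 0.22 in TPN (adjusted p = 0.189) and 0.51 ± 0.22 in starvation (adjusted p = 0.196).

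A wider list held other genes known to be induced by interleukin 22, interleukin 17 or STAT3. Of 15 tested, 5 rose and 0 fell in TPN against sham (median log2 fold change 1.71, beside -0.02 over all genes). Some were lower without passing edgeR's test, among them Duox2 (-2.53, adjusted p = 0.0584) and Duoxa2 (-2.62, 0.108). For both, every TPN library was below every sham library. In starvation against sham 0 of the 15 passed (median -0.52, with 3 at unadjusted p under 0.05 and 2 called by DESeq2), and 6 were higher in TPN than in starvation (median 2.15). Saa3, an acute-phase protein, had 2, 21 and 1 reads in sham, 1014, 617 and 836 in TPN and 0, 0 and 16 in starvation, and nearly all of its reads came from the TPN libraries. Its log2 fold change against sham was 6.54 ± 1.03 (adjusted p = 0.00811). Cebpd, a transcription factor of the acute-phase response, rose in TPN to 113 ± 8.14 from 29.4 ± 8.35 CPM (1.94 ± 0.19, adjusted p = 0.00111). Steap4, a metalloreductase, rose to 36.2 ± 3.87 from 4.41 ± 3.26 CPM (3.04 ± 0.60, adjusted p = 0.0177). Il1rn, the interleukin 1 receptor antagonist, rose to 15.04 ± 0.618 from 4.59 ± 0.810 CPM (1.71 ± 0.40, adjusted p = 0.0347). No single library left out ended the Saa3 or Cebpd call, though without sham replicate 2 the Saa3 log2 fold change was 8.99. The Steap4 call was lost without sham replicate 3 or any TPN library (adjusted p up to 0.0721), and the Il1rn call without any sham or TPN library or starvation replicate 2 (up to 0.118). For these 4 genes no TPN library overlapped a sham or starvation library.

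The villus bottom expresses further defence genes beside Reg lectins. Of 6 tested genes of the villus bottom, 1 fell in TPN and 1 in starvation against sham, both times Gsdmc4, a gasdermin. It had 71, 38 and 104 reads in sham, 5, 4 and 9 in TPN and 0, 5 and 3 in starvation, log2 fold changes of -3.58 ± 0.69 (adjusted p = 0.0163) and -4.53 ± 0.76 (adjusted p = 0.0215). The first was lost without sham replicate 3 or any TPN library (adjusted p up to 0.0938), and the second without sham replicate 1 or 3, TPN replicate 1 or 2 or starvation replicate 2 (up to 0.0828). Pigr, which carries antibodies into the lumen, differed by -0.15 ± 0.34 in TPN (adjusted p = 0.809) and by -0.36 ± 0.34 in starvation (adjusted p = 0.558). Each passed in 1 of 23 alternatives, that without sham replicate 2 and starvation replicate 3 together. There Pigr was at -0.45 in TPN (adjusted p = 0.0039) and -0.61 in starvation (0.0034). That fit called 4425 and 2949 of all 14855 genes it tested.

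Of 13 other secreted lectins and antimicrobials, 2 fell and 0 rose in each comparison with sham. Lgals9, a galectin, fell by 0.67 ± 0.16 on the log2 scale in TPN (adjusted p = 0.0376) and by 0.86 ± 0.16 in starvation (adjusted p = 0.0298). Sprr2a3, a small proline-rich protein, fell in TPN by 3.21 ± 0.67 (adjusted p = 0.0224). Itln1, the lectin intelectin of Paneth and goblet cells, fell in starvation to 108 ± 30.1 from 298 ± 29.7 CPM (-1.47 ± 0.22, adjusted p = 0.0141). Itln1 was also higher in TPN than in starvation (1.39 ± 0.22, adjusted p = 0.0104), and Lgals3, a galectin, was lower in TPN (-1.79 ± 0.45, adjusted p = 0.0498). Left out singly, sham replicate 3 ended the Itln1 call in starvation (adjusted p = 0.0657), and TPN replicates 1 and 3 that between TPN and starvation (0.0564 and 0.0599). The Sprr2a3 call was lost without sham replicate 1 or 2 or any TPN library (up to 0.105). The calls of Lgals9 passed in 3 of 9 such fits in TPN, without sham replicate 2 or starvation replicate 1 or 3, and in 2 of 9 in starvation, without sham replicate 2 or starvation replicate 3. That of Lgals3 passed in 2 of 9, without sham replicate 2 or starvation replicate 1. In the fit with the replicate number as a block, the Itln1 call against sham was lost (0.0531), and with the smooth muscle covariate the Sprr2a3 call was (0.1004). Like Lypd8, Itln1 was lower in every starvation library than in any other library.

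Likeness over the 9 libraries was measured as the root mean square difference of log2 CPM, each gene centred on its own mean, among 10151 genes with a mean log2 CPM of at least 3. It is given as a description. The genes most like Lypd8 were Fkbp4 (0.133), Pycard (0.178) and Apol7c (0.198). Those most like Reg3b were Gngt2 (0.336), Zfp524 (0.356) and Mknk1 (0.377), and those most like Reg3g were Cxcl14 (0.432), Tbc1d16 (0.511) and Nes (0.525). Reg4 was closest to Rpl23a (0.127), Esf1 (0.127) and Tlcd1 (0.130). Reg3a was closest to Rab11fip5 (0.469), Tanc2 (0.554) and Fgfr2 (0.579), and Reg1 to Samd4b (0.585), Hibch (0.591) and Rap1gap (0.594). Among the 15 pairs of the 6 genes, Reg4 and Lypd8 were the most alike (0.319), and Reg3b and Reg3g the least alike (1.21).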

How the data were processed

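Poly(A)-selected RNA from 9 jejunal samples was sequenced, and the authors deposited whole-number counts per gene, a table of protein-coding genes. STAR 2.7.2e, featureCounts 2.0.0 and build GRCm38 are listed per the submitters' processing notes, beside FastQC 0.11.8, cutadapt 2.9 and DESeq2 1.32.0. The sources used do not state the strand setting or read length. A further 9 count columns matched no sample and were not used. Groups came from the treatment labels.

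The counts of all 9 libraries were fitted in edgeR 4.0.16 (R 4.3.3) with TMM scaling, filterByExpr and quasi-likelihood tests of 3 contrasts. Adjusted p is Benjamini-Hochberg over 14668 genes, with a threshold of 0.05, and the fits leave 6 residual degrees of freedom. The fitting was tested on simulated data. Alternatives were DESeq2 1.42.0, limma 3.58.1 voom, other scalings and filters, covariates, a replicate block and libraries left out. Each pair of replicates differed beyond sampling noise (chi-square of 7.74 to 118 per gene). The 6 genes and the 19 gene lists were chosen with earlier results of these data known, so no list is independent evidence. All 6 genes were described. List genes were named where adjusted p passed 0.05, up to 4 per list and comparison with the smallest adjusted p. Stat3, Il22ra1, Il18, Pigr, Reg2 and Lypd8l were named in any case, and Duox2 and Duoxa2 were added as genes that went the other way. Likeness takes the 3 nearest genes. The limit given for Il22 covers counting error only, while SD and SE include the spread between libraries.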

Additional observations from a re-analysis of the deposited data

Results flagged for a closer look

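TPN and starvation had different effects relative to the same sham libraries for 9 of the named genes, as tested by edgeR's contrast of TPN against starvation, which is the difference of both effects. List genes were named where they passed in a comparison, this one included, so the 9 were partly selected by the test reported. Of all genes tested, 5.84% passed in it. Higher in TPN were Lypd8 (log2 fold change 1.22, adjusted p = 0.0312), Osmr (2.23, 0.0272), Il1b (3.05, 0.00373), Cebpd (1.41, 0.00528), Saa3 (7.06, 0.00905), Steap4 (3.86, 0.0114), Il1rn (2.34, 0.0149) and Itln1 (1.39, 0.0104). Lgals3 was lower in TPN (-1.79, 0.0498). Without starvation replicate 3, which leaves 2 starvation libraries at 0 reads, Saa3 was at 12.7, a value that depends on the fit and is no bound. With single libraries left out, the Steap4 call was lost without TPN replicate 2 or 3 (adjusted p = 0.0523 and 0.0602), the Il1rn call without any TPN library (up to 0.0722), the Itln1 call without TPN replicate 1 or 3 (0.0564 and 0.0599), and the Osmr call without any TPN library or starvation replicate 2 (up to 0.109). The Lgals3 call was lost without sham replicate 1 or 3, any TPN library or starvation replicate 2 or 3 (up to 0.191), and the Lypd8 call without sham replicate 3, any TPN library or starvation replicate 2 (up to 0.124). The difference itself passed for none of Reg1, Reg3a, Reg3b, Reg3g and Reg4 in edgeR with all 9 libraries, where unadjusted p was under 0.05 for Reg3a and Reg4 and DESeq2 called Reg3a.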

How the results depend on the processing

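DESeq2 called 1 of the 6 genes in TPN against sham (Reg3b), 2 in starvation against sham (Reg3g, Lypd8) and 2 in TPN against starvation (Reg3a, Lypd8). In TPN against starvation the count was 0 with library totals only, the replicate block, the acinar covariate, only libraries low in acinar markers (below 0 log2 CPM), sham 1, TPN 2 and starvation 1 left out together (chosen after seeing the data), and an adjusted p under 0.01. In starvation against sham it was 1 (Lypd8) after leaving out sham 2 with starvation 3, and with the smooth muscle covariate. With each library left out in turn it ran from 0 to 1 in all 3 comparisons. Same-numbered libraries showed no steady likeness: correlations of same-numbered deviations ran from -0.300 to 0.378, 2 of 9 were over 0.1, and 1 of 9 libraries correlated best with its own number. The check cannot tell whether libraries shared a day or litter. With the replicate block the calls over all genes were 556, 71 and 386 against 1261, 541 and 857, and Lypd8 in TPN against starvation was 1.20 (adjusted p = 0.0788). DESeq2 called 2421, 1654 and 1791. Over all genes, in the same order, the fits of only the groups compared called 2774, 2 and 545, the acinar covariate 631, 309 and 454, the smooth muscle covariate 524, 201 and 1273, and leaving out sham 2 and starvation 3 called 4425, 2949 and 3205. Leaving out the 3 libraries high in acinar markers called 39, 2 and 36. Library totals called 353 in starvation against sham, and a threshold of 0.01 left 258, 30 and 144. Leaving out TPN replicate 2 gave 223, 117 and 137 calls and starvation replicate 3 gave 3182, 1739 and 1075. Library totals moved the median of all genes in TPN against sham from -0.02 to 0.17. They moved the higher and lower calls to 651 and 573 from 510 and 751, and upper quartile factors to 702 and 665. For list genes against sham, the replicate block ended calls of Il33, Il1rn and Lgals9 in TPN and of Gsdmc4, Lgals9, Bcl3 and Itln1 in starvation (adjusted p up to 0.0729). Both covariates ended those of Il33, Il1rn and Lgals9 in TPN, and smooth muscle also Osmr and Sprr2a3 there and Bcl3 in starvation (up to 0.208). Fitting only the groups compared ended those of Gsdmc4, Lgals9, Bcl3 and Itln1 in starvation (up to 0.146), and library totals that of Lgals9 in TPN (0.1202). Between TPN and starvation, Osmr was lost with library totals (0.0540) and only the groups compared (0.0595), and Lgals3 with limma voom, RLE factors, only the groups compared, the block and both covariates (up to 0.125). Leaving out the 3 libraries high in acinar markers lost all 23 calls of single genes.

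The following signs changed, none of them in a result that had passed; the cause was not tested. In TPN against sham, Reg1 was -0.12 with the acinar covariate, -0.82 with the smooth muscle covariate, -0.12 in the libraries low in acinar markers and -0.37 without TPN replicate 2 (1.25 without sham replicate 1). Reg3a was -0.23 in the libraries low in acinar markers, -0.21 without the 3 libraries high in them and -0.076 without TPN replicate 2 (1.49 without TPN replicate 3). Lypd8 was -0.12 with the smooth muscle covariate. Stat3 was 0.015 and Pigr 0.0069 with library totals only, and Pigr was also 0.066 in the libraries low in acinar markers, 0.17 without the 3 high ones and -0.49 to 0.12 with single libraries left out. In starvation against sham, Reg1 ran from -1.11 to 0.10, Stat3 from -0.23 to 0.26 and Il22ra1 from -0.14 to 0.54 with single libraries left out, and without sham 2 and starvation 3 Stat3 was -0.20 and Il22ra1 -0.11. In TPN against starvation, Reg3b was -0.44 in the libraries low in acinar markers and -0.43 without the 3 high ones, and ran from -0.19 to 0.65 with single libraries left out. Reg3g was -0.48 and -0.22 in those fits, and ran from -0.17 to 1.04. With single libraries left out, the log2 ratio of Reg3b to Reg3g against sham ran from 2.20 to 2.81. It was 2.77 for TPN in libraries low in acinar markers. No group overlapped sham, which fixed its sign.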

Other observations

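Markers of other cells were given as lists, with the number that passed edgeR's test. Of 5 neutrophil markers, 1 rose in TPN and 1 fell in starvation against sham, and 3 were higher in TPN than in starvation. The summed level of all 10 neutrophil markers in the table was 43.8 to 50.8 CPM in TPN, 34.5 to 43.2 CPM in sham and 14.2 to 25.1 CPM in starvation. Of 12 enterocyte markers, 3 fell in TPN against sham and 4 were lower in TPN than in starvation, while 0 passed in starvation against sham (2 at unadjusted p under 0.05, 0 by DESeq2). Of 12 goblet cell markers, 1 was higher in TPN than in starvation. Of 16 enteroendocrine markers, 1 fell in TPN and 2 in starvation against sham, and 2 were higher in TPN than in starvation. Of 10 stem cell markers, 1 fell in TPN. The 15 Paneth cell markers included 1 that rose in TPN against sham.

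In edgeR 0 of 5 markers of type 3 lymphoid cells, known sources of interleukin 22, passed in any comparison. The summed level of all 10 such markers in the table was 89.9 to 95.2 CPM in sham, 115 to 134 CPM in TPN and 134 to 199.6 CPM in starvation. The highest sum, in starvation replicate 3, came from few of the genes. In that library 6 of the 10 were at 0, among them Il23r, Il22 and Ncr1. Its mean log2 CPM over the 10 markers was the lowest of all 9 libraries, at -1.08. Unadjusted p was under 0.05 for 2 of them in starvation against sham, where DESeq2 called 2, and for 1 in TPN against starvation, where it called 0. Likewise 0 of 18 acinar, 0 of 15 smooth muscle and 0 of 9 villus tip markers passed in any comparison. Among the smooth muscle markers 14 in TPN and 13 in starvation had an unadjusted p under 0.05 against sham, and DESeq2 called 4 and 2. Of 6 distal intestinal markers 1 rose and 1 fell in TPN against sham, with 5 at unadjusted p under 0.05 and 4 called by DESeq2. Of 7 proximal markers 1 fell there, with 6 at unadjusted p under 0.05 and 4 called by DESeq2 (median log2 fold change -0.62). All 8 proximal markers in the table summed to 1538 to 1729 CPM in TPN, 2308 to 2585 CPM in sham and 1813 to 3277 CPM in starvation. Their part in the values of the 6 genes was not tested.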
